A study of Mus musculus with 7 samples.

Results

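The 8 transcripts described here encode metabotropic glutamate receptors (Grm2, Grm3, Grm4, Grm5, Grm7 and Grm8) and the subunits of the GABA-B receptor (Gabbr1 and Gabbr2). They were chosen by gene symbol, and are 8 of the 24062 genes counted. According to the study, RNA came from neurons of adult female Esr1-ZsGreen mice. In these mice a ZsGreen reporter transgene marks cells that express estrogen receptor alpha (ERα, gene Esr1). The neurons were recorded by patch clamp in slices of the medial preoptic area (MPA) that were warmed by 5 °C. Neurons whose firing rose with warming beyond the study's cutoff formed the temperature-responsive (TR) group, with 4 samples, and the others the non-responsive (NR) group, with 3 samples. All 7 samples were ZsGreen-positive, all were exposed to the same warming, and each pooled the aspirated contents of 2 neurons with similar responses. The comparison asks how the transcriptomes of TR and NR neurons differ. The labels do not say which mouse each neuron came from, so p-values measure the spread between these samples.

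These receptors respond to the main excitatory and inhibitory transmitters of the brain, but act through G proteins and so more slowly than receptor channels. Grm5 belongs to group I, which couples to Gq, phospholipase C and calcium release and sits largely outside the core of excitatory synapses on the receiving neuron. Group II (Grm2, Grm3) and group III (Grm4, Grm7, Grm8) couple to Gi and Go, lower cyclic AMP and restrain transmitter release from axon terminals. The GABA-B receptor works as a pair: Gabbr1 binds GABA, and Gabbr2 brings Gabbr1 to the cell surface and activates Gi and Go, which open GIRK potassium channels and close presynaptic calcium channels. In the hypothalamus, as elsewhere in the brain, such receptors set how strongly glutamate and GABA inputs drive a neuron.

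Gabbr2 was lower and Grm5 was higher in TR than in NR samples, whereas the other 6 transcripts did not pass the threshold. The threshold was an adjusted p under 0.05 (edgeR's quasi-likelihood test, Benjamini-Hochberg over the 14407 genes tested). Of all genes tested, 30.0% passed, 15.1% higher and 14.9% lower in TR samples, so that 2 of 8 is near the background share. All 8 receptors passed the filter for low counts (at least 10 counts in at least 3 samples). The median log2 fold change of the 8 was 0.13, against 0.0071 over all genes tested. Levels are given as CPM, the share of a sample's counts scaled to a common total after TMM normalization, which uses a robust estimate of each sample's depth. Every TR sample was above every NR sample for 3 of the 8 (Grm5, Grm7 and Gabbr1), and for 0 of the 8 every TR sample was below; groups did not overlap for 35.4% of all genes tested, 17.2% with TR above and 18.2% with TR below. A count of 3 corresponded to 0.568 to 1.63 CPM, and the lowest count of any receptor in any sample was 19.

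**Figure D1:**
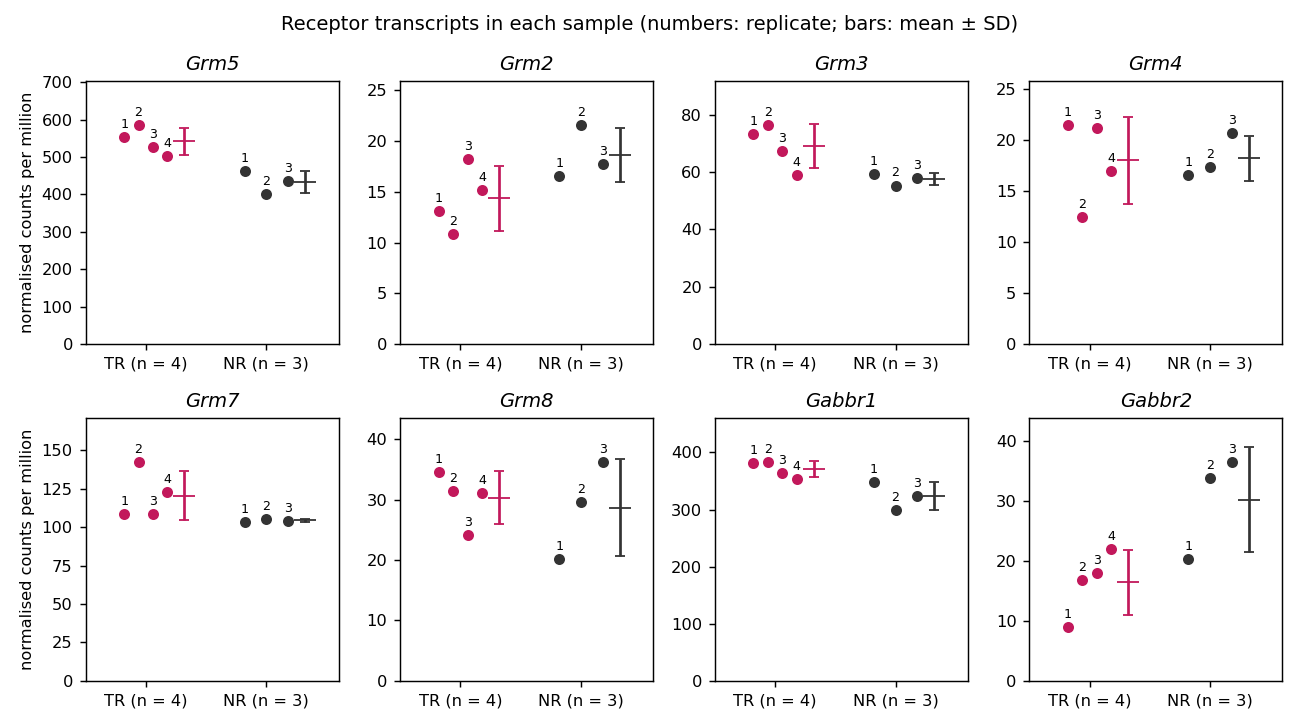
Each panel plots the level of 1 receptor transcript in normalised CPM in the 4 TR samples (pink) and the 3 NR samples (dark grey), numbered by replicate, with mean ± SD beside them. Grm5 lies between 502 and 586 CPM in TR and between 401 and 461 CPM in NR samples, and Gabbr2 reaches at most 21.9 CPM in TR samples, with NR replicate 1 inside the TR range.

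The samples differed in ways that followed the groups. Totals ranged from 1914497 to 2814360 counts in TR and from 3309361 to 5125280 in NR samples, and genes with at least 1 count from 19852 to 21177 and from 17818 to 19820. Neuronal markers were abundant in every sample (5 genes, 2395 to 2819 CPM summed in TR and 2205 to 2498 CPM in NR). Esr1, the gene of the reporter cells, was low, at 3.60 to 11.4 CPM or 0.264 to 0.834 CPM per kb of exon. Reads on olfactory receptor genes, taken as stray, averaged 0.0128 to 0.234 CPM per kb per sample. The 3 GABAergic markers summed to 879 to 1409 CPM in TR and 781 to 849 CPM in NR samples. Gad1 was called higher in TR (log2 fold change 0.48, adjusted p = 0.00766, edgeR), and Gad2 and Slc32a1 were not called. The 3 glutamatergic markers summed to 398 to 584 CPM in TR and 523 to 612 CPM in NR samples, and none was called. On the log2 scale, Slc17a6 stood at -0.0076, Slc17a7 at -0.25 and Slc17a8 at 0.66 (adjusted p = 0.970, 0.0770 and 0.424, edgeR). The part of these markers in the receptor results was not tested. Glial markers were present as well: the 5 oligodendrocyte genes summed to 2796 to 3801 CPM in TR and 2372 to 3000 CPM in NR samples, the 5 microglial genes to 273 to 308 and 307 to 326 CPM. Per kb of exon, the oligodendrocyte markers stood at 89.0 to 143 CPM over the samples and the neuronal markers at 56.2 to 71.8 CPM. Levels are therefore those of samples, not of neurons alone, and the part of glial RNA in the receptor results was not tested. The Y-linked gene Ddx3y had 684 to 1150 counts per sample and Xist 2 to 14. These counts go against the study's statement that only females were used, and the source of the Y-linked reads was not tested. Genes with GC-rich transcripts tended to be lower in TR samples (Spearman's rho of log2 fold change with GC content -0.342 over 13745 genes, which are not independent), and GC content is therefore given beside each receptor.

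Gabbr2 lies on chromosome 4 of mm10, minus strand, from 46662305 to 46991873. It had 19, 31, 49 and 62 counts in TR replicates 1 to 4, or 8.89, 16.8, 17.9 and 21.9 CPM. In NR replicates 1 to 3 it had 67, 178 and 181 counts, or 20.2, 33.7 and 36.5 CPM. NR replicates 2 and 3 stood above all other samples, while NR replicate 1 lay below TR replicate 4, so the groups overlapped. The mean was 16.4 ± 5.47 CPM (SD, n = 4) in TR and 30.1 ± 8.71 CPM (SD, n = 3) in NR samples, 1.83-fold higher in NR. The log2 fold change TR over NR was -0.87 (standard error 0.240, 95% interval -1.37 to -0.38, adjusted p = 0.00902, edgeR). This placed Gabbr2 at percentile 1.62 of the log2 fold changes of all genes tested. Without NR replicate 3 the log2 fold change was -0.72 and no longer passed the threshold (adjusted p = 0.0610, edgeR), and in a fit with a term for genes detected it was -0.64 (adjusted p = 0.528, edgeR).

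Gabbr1, on chromosome 17 of mm10, plus strand, from 37045966 to 37075067, was measured on far more reads, 708 to 1602 counts per sample. Its level was 381, 384, 363 and 354 CPM in TR replicates 1 to 4 and 348, 299 and 323 CPM in NR replicates 1 to 3. Every TR sample was above every NR sample, by the smallest margin between TR replicate 4 and NR replicate 1. The log2 fold change of 0.20 (standard error 0.0943, 95% interval 0.0032 to 0.39) fell short of the threshold (adjusted p = 0.115, edgeR). With upper quartile normalization it was 0.26 and passed (adjusted p = 0.0440, edgeR), but that setting also moved the median of all genes tested up by 0.067.

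Within each sample, reads of the ligand-binding subunit outnumbered those of its partner. Per kilobase of exon, the ratio of Gabbr1 to Gabbr2 was 36.9, 19.7, 17.5 and 13.9 in TR replicates 1 to 4. It was 14.8, 7.63 and 7.62 in NR replicates 1 to 3. The highest ratio came from TR replicate 1, which had the fewest Gabbr2 reads, and NR replicate 1 lay just above the lowest TR sample. On the log2 scale the ratio of counts averaged 4.57 ± 0.60 (SD, n = 4) in TR and 3.47 ± 0.55 (SD, n = 3) in NR samples, a difference of 1.11 that ranged from 0.82 to 1.43 when each sample was left out in turn. The ratio does not depend on library scaling, and it is given as a description, with no test.

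**Figure D2:**
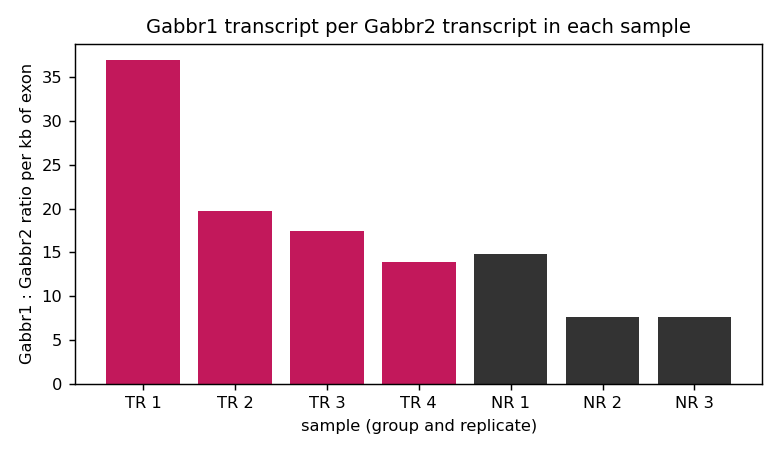
Bars show the ratio of Gabbr1 to Gabbr2 per kb of exon in each of the 7 samples (TR pink, NR dark grey). TR samples run from 13.9 to 36.9 and NR samples from 7.62 to 14.8, with TR replicate 4 below NR replicate 1.

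The promoter sequences of this pair are shown because the partners differed in level and in composition. The stretches are from RefSeq's promoter windows on GRCm38.p6 (250 bases before to 50 after each start), limited to the bases upstream of the starts that RefSeq and GENCODE M21 annotate, written 5′ to 3′ on the gene's strand, with capitals marking GC boxes (GGGCGG on either strand, overlapping matches counted). That of Gabbr1 covers chr17:37045716-37045965 on the plus strand (250 bases, 2 GC boxes), and that of Gabbr2 covers chr4:46991874-46991964 on the minus strand (91 bases, 0 GC boxes).
Gabbr1: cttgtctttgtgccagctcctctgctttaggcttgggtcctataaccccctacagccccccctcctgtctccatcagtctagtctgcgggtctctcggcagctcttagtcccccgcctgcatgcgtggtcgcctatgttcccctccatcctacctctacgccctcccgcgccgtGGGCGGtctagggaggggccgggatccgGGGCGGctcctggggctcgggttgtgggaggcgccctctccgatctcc
Gabbr2: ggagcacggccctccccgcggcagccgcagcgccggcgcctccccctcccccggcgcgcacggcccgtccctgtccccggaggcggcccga

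Over the whole window of 300 bases, GC content was 80.3% for Gabbr2 and 67.3% for Gabbr1, above 99.1% and 86.2% of the 32841 windows in the table. Both windows held GC boxes, 3 for Gabbr1 and 2 for Gabbr2, as did 35.7% of all windows. Neither window held the half-site of the cyclic AMP response element (TGACG on either strand), which 20.8% of all windows held. Windows were also found for Grm2, Grm3, Grm7 and Grm8, 6 of the 8 receptors in all, and not for Grm4 and Grm5.

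Grm5, the group I receptor, lies on chromosome 7 of mm10, plus strand, from 87584168 to 88134907, and had 1080 to 2165 counts per sample. Its level was 554, 586, 528 and 502 CPM in TR replicates 1 to 4 and 461, 401 and 436 CPM in NR replicates 1 to 3. All TR samples were above all NR samples, the same as for 17.2% of genes. The mean was 542 ± 35.9 CPM (SD, n = 4) in TR and 433 ± 30.1 CPM (SD, n = 3) in NR samples, a 1.25-fold difference. The log2 fold change was 0.32 (standard error 0.0976, 95% interval 0.12 to 0.53, adjusted p = 0.0145, edgeR). Its transcript has a GC content of 42.5%, and among the 2113 genes within 2 percentage points of that, 26.4% were higher in TR samples. With an offset for GC content the log2 fold change shrank to 0.11 (adjusted p = 0.426, edgeR), and the call was also lost without TR replicate 2 (0.29, adjusted p = 0.0536), NR replicate 2 (0.27, adjusted p = 0.102) or NR replicate 3 (0.33, adjusted p = 0.0582), all with edgeR.

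Gabbr2 kept its call under the same offset. Its transcript has a GC content of 56.0%, and of the 2497 genes within 2 percentage points of it 25.8% were lower in TR samples, with a median log2 fold change of -0.20. With the offset, Gabbr2 was at -0.81 on the log2 scale (adjusted p = 0.0116, edgeR). Gabbr1, at 53.0% GC, had 0.20 against a median of -0.11 over the 2855 genes of like composition, and 0.22 with the offset (adjusted p = 0.0984, edgeR).

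**Figure D3:**
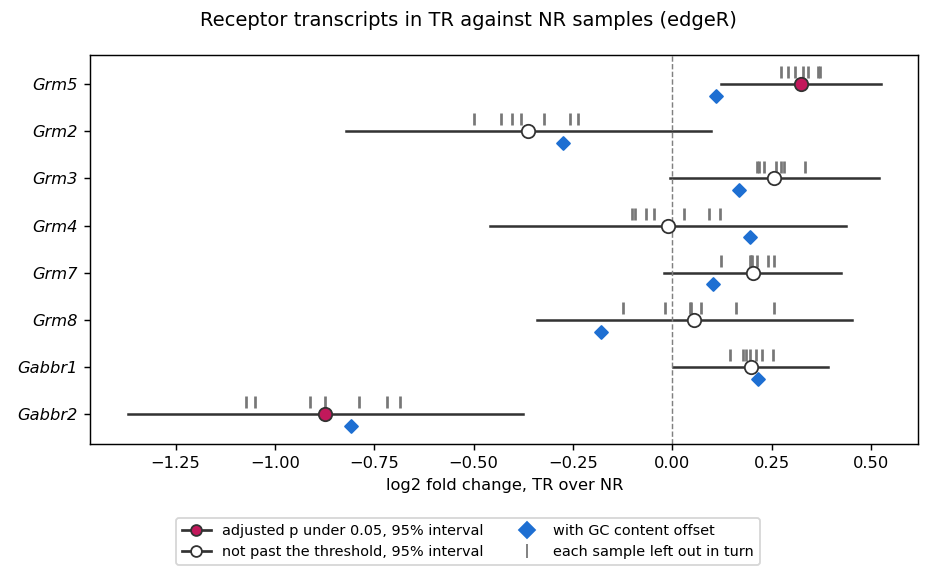
Points show the log2 fold change of each receptor in TR over NR samples with its 95% interval (filled where the adjusted p was under 0.05), blue diamonds the value with a GC content offset, and grey ticks the values with each sample left out in turn. Gabbr2 stays at -0.81 under the offset, while Grm5 moves from 0.32 to 0.11.

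The group II receptors moved apart in value, but neither passed the threshold. Grm3, on chromosome 5 of mm10, minus strand, from 9485541 to 9725170, is made by astrocytes as well as neurons. It had 73.4, 76.5, 67.3 and 59.1 CPM in TR replicates 1 to 4 and 59.4, 55.3 and 57.9 CPM in NR replicates 1 to 3. The groups met at TR replicate 4, which lay just under NR replicate 1. The log2 fold change was 0.26 (95% interval -0.0048 to 0.52, adjusted p = 0.128, edgeR). Astrocyte markers were in every sample, none of the 6 at 0 counts, and summed to 1793 to 1976 CPM in TR and 1556 to 1787 CPM in NR samples. Of these 6, Slc1a3 and Gja1 rose, Gfap fell and 3 did not pass the threshold, and their part in the level of Grm3, or of Grm5 and Gabbr1, which astrocytes also make, was not tested.

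Grm2, which restrains glutamate release from axon terminals, lies on chromosome 9 of mm10, minus strand, from 106643095 to 106656082. It had 28, 20, 50 and 43 counts in TR replicates 1 to 4 (13.1, 10.8, 18.3 and 15.2 CPM) and 55, 114 and 88 counts in NR replicates 1 to 3 (16.6, 21.6 and 17.7 CPM). Only TR replicate 3 reached into the NR range. The log2 fold change of -0.36 had a 95% interval from -0.82 to 0.097 (adjusted p = 0.226, edgeR). Of its exonic bases, 9.60% are shared with an antisense gene that is not among the counted symbols, and the strand setting of the counting is not stated. Markers of cortex and hippocampus, where Grm2 is known to be expressed, were found in every sample (4 genes, 148 to 270 CPM summed in TR and 188 to 204 CPM in NR), and their part was not tested.

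Among the group III receptors, Grm7 was the most abundant and none passed the threshold. Grm7, an autoreceptor of the release site with low affinity for glutamate, lies on chromosome 6 of mm10, plus strand, from 110645581 to 111567230. Its level was 109, 143, 108 and 123 CPM in TR replicates 1 to 4 and 103, 106 and 104 CPM in NR replicates 1 to 3. The NR samples lay within a few CPM of each other and below every TR sample, of which TR replicate 2 was the highest. The log2 fold change of 0.20 (95% interval -0.021 to 0.43) was not called (adjusted p = 0.160, edgeR), and it was 0.12 without TR replicate 2. An antisense gene not among the counted symbols shares 2.21% of its exonic bases.

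Grm8, also on chromosome 6, minus strand, from 27275119 to 28135178, shares 0.970% of its exonic bases with Mir592. It had 34.6, 31.5, 24.1 and 31.1 CPM in TR and 20.2, 29.6 and 36.3 CPM in NR samples. NR replicates 1 and 3 were its lowest and highest samples, so the NR group spanned the whole TR group. The log2 fold change was 0.056 (95% interval -0.34 to 0.45, adjusted p = 0.853, edgeR). Grm4, on chromosome 17, minus strand, from 27422387 to 27521403, is best known from cerebellar granule cells. It had 21.5, 12.5, 21.2 and 17.0 CPM in TR and 16.6, 17.4 and 20.8 CPM in NR samples. Its groups overlapped fully, with a log2 fold change of -0.011 (95% interval -0.46 to 0.44, adjusted p = 0.977, edgeR). The 4 cerebellar markers summed to 21.5 to 36.3 CPM in TR and 35.9 to 47.0 CPM in NR samples. The lower sum in TR came from Cbln1, at 22.5 ± 5.86 CPM (SD, n = 4) in TR and 38.6 ± 6.84 CPM (SD, n = 3) in NR samples. The other cerebellar markers had higher means in TR: Cbln3 at 4.78 against 1.80 CPM, Gabra6 at 1.46 against 0.201 and Pcp2 at 0.839 against 0.130. Gabra6 and Pcp2 were at 0 counts in some samples, and the part of the cerebellar markers was not tested. The sign of Grm4 and of Grm8 changed with the setting, upper quartile normalization included for Grm4, and the intervals leave room for differences in either direction.

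Per kilobase of exon, the 8 transcripts fell into 3 levels that did not overlap in any sample. Grm5 (39.2 to 57.2 CPM per kb over the 7 samples) and Gabbr1 (38.5 to 49.5) were highest, at percentiles 91.3 and 90.5 of the genes tested. Grm3 (18.1 to 25.1 CPM per kb) and Grm7 (17.5 to 24.2) followed. Gabbr2 (1.33 to 5.46 CPM per kb), Grm2 (2.22 to 4.41), Grm4 (2.09 to 3.60) and Grm8 (2.04 to 3.67) were lowest, between percentiles 26.7 and 29.2. Within each level the ranges of neighbours overlapped over the samples. Compared within samples, Grm5 was above Gabbr1 in every sample, by the smallest margin in NR replicate 1. Grm3 was above Grm7 in every sample but TR replicate 4. The order of Gabbr2, Grm2, Grm4 and Grm8 changed between samples and is not resolved. Olfactory receptor genes, a gauge of stray reads, averaged 0.0128 to 0.234 CPM per kb per sample, below the lowest receptor value. As a share of the summed level per kb of all 8, Grm5 made up 33.3 to 34.5% in TR and 30.3 to 32.6% in NR samples, and the GABA-B pair 31.3 to 33.2% and 33.7 to 34.7%. Group II (15.3 to 17.1% and 16.5 to 17.5%) and group III (16.1 to 18.2% and 16.2 to 18.5%) overlapped between the groups. The order rests on exon lengths from GENCODE M21, since the annotation used for counting is not stated.

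**Figure D4:**
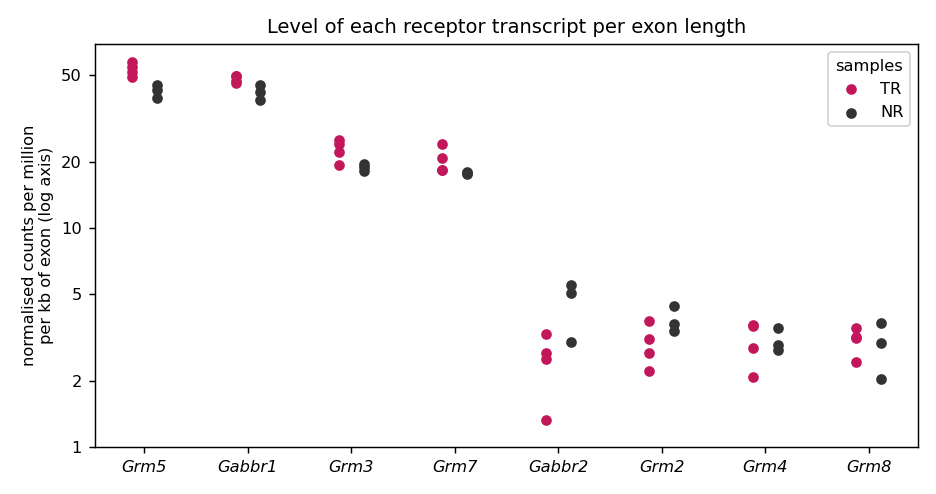
Points show the level of each receptor per kb of exon in CPM, on a log axis, in TR (pink) and NR (dark grey) samples. Gabbr1, at 38.5 or more in every sample, sits with Grm5, and its partner Gabbr2, at 5.46 or less, sits with Grm2, Grm4 and Grm8.

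Across the 7 samples, log2 CPM of Grm5 and Gabbr1 varied together (Pearson's r = 0.974), and Grm3 followed both (0.932 with Grm5 and 0.885 with Gabbr1). Gabbr2 ran opposite to Gabbr1 (-0.859) and Grm5 (-0.814). These values describe 7 samples in which depth, genes detected and group change together. Among all 14406 other genes tested, the closest pattern was that of Rps12 for Grm5 (r = 0.995), Ccdc47 for Gabbr1 (0.988) and Mgat3 for Gabbr2 (0.991). Klhl34 was closest to Grm2 (0.989), Sptbn1 to Grm3 (0.989), Rab34 to Grm4 (0.973), Usp43 to Grm7 (0.993) and Plgrkt to Grm8 (0.976). Each is the highest of 14406 values over only 7 samples, and it was high for every receptor. The pairings therefore describe these samples and show no relation between the genes.

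Of 47 partner genes of these receptors, 6 were higher and 12 lower in TR samples, or 38.3%, against 30.0% of all genes tested. The median log2 fold change of the 47 was -0.092. With the GC content offset 18 were also called, 15 of them the same, and the direction split was then 3 higher and 15 lower. Of the 7 auxiliary subunits and binding partners of GABA-B, 3 rose and 1 fell. Kctd12, a cytosolic auxiliary subunit that speeds desensitization of the receptor, rose from 153 ± 24.6 CPM (SD, n = 3) in NR to 213 ± 14.3 CPM (SD, n = 4) in TR samples (log2 fold change 0.48, adjusted p = 0.00211, edgeR). Its relative Kctd8 rose by 0.49 and App, which binds the extracellular part of Gabbr1, by 0.38 on the log2 scale, while Pianp, another ligand of that part, fell by 0.51. App lost the threshold with the GC content offset (adjusted p = 0.0902, edgeR).

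Of the 4 GIRK subunits, through which GABA-B receptors hyperpolarize neurons, 1 fell and 3 did not pass the threshold. Kcnj9 was at 17.2 ± 2.41 CPM (SD, n = 4) in TR and 34.8 ± 4.30 CPM (SD, n = 3) in NR samples, without overlap (log2 fold change -1.01, adjusted p = 0.000449, edgeR), and at -0.92 with the GC content offset. Kcnj6 had -0.59 (adjusted p = 0.0502, edgeR) and was called with the offset (-0.67, adjusted p = 0.0305, edgeR), Kcnj3 -0.32 and Kcnj5 0.34. Among the 7 G protein alpha subunits, Gnai3 and Gnai1 rose by 0.61 and 0.38, and Gnai2 and Gnaz fell by 0.45 and 0.46. Transcripts of the former have GC contents of 41.7% and 42.6%, those of the latter 56.7% and 54.8%, and with the offset all but Gnai1 kept their call, Gnai3 at 0.38 in place of 0.61. Gnao1, the main Go subunit of neurons, had -0.15 (adjusted p = 0.226, edgeR).

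**Figure D5:**
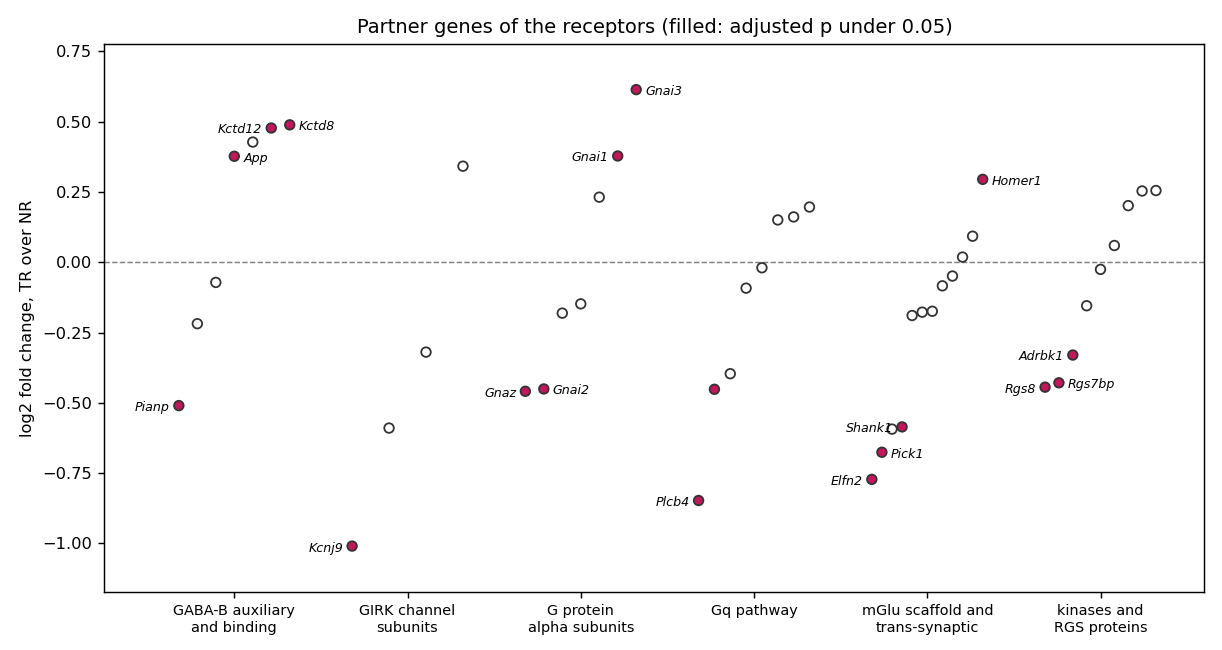
Points show the log2 fold change (TR over NR) of the 47 partner genes by role, filled where the adjusted p was under 0.05, with the names of those reported. The lowest is Kcnj9 at -1.01 and the highest Gnai3 at 0.61, both without the GC content offset.

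Downstream of group I receptors, 2 of 8 Gq pathway genes fell and 6 did not pass the threshold. Plcb4, a phospholipase C that Gq activates, was at 18.3 ± 3.63 CPM (SD, n = 4) in TR and 33.0 ± 4.21 CPM (SD, n = 3) in NR samples (log2 fold change -0.85, adjusted p = 0.00197, edgeR), whereas its relative Plcb1 had 0.15 (adjusted p = 0.261, edgeR). Of 12 scaffold and trans-synaptic partners, 1 rose and 3 fell. Homer1, which ties Grm5 to the postsynaptic scaffold, rose by 0.29 (adjusted p = 0.0226, edgeR), but had -0.063 with the GC content offset. Pick1, which binds the tail of Grm7, fell by 0.68, Elfn2, which recruits group III receptors across the synapse, by 0.77, and Shank1 by 0.59. Of 9 kinases and RGS proteins that end receptor signalling, 3 fell and 0 rose: Rgs7bp by 0.43, Rgs8 by 0.44 and Adrbk1 by 0.33. With the GC content offset Rgs4 (-0.33, adjusted p = 0.0149, edgeR) and Rgs7 (-0.38, adjusted p = 0.00888, edgeR) were also called lower, from -0.15 and -0.025 without it. In the edgeR fit with a term for genes detected, 0 of the 47 partners and 0 of the 8 receptors were called (6 and 0 at an unadjusted p under 0.05).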

How the data were processed

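Each of the 7 samples was amplified with the SMART-seq V4 kit and made into a Nextera XT library. The authors aligned reads to mm10 with STAR 2.6.0, removed duplicates with RmDup, counted reads per gene symbol with HTSeq 0.9.1 and deposited these counts without normalization. Without molecular identifiers, duplicate removal can discard separate molecules of abundant transcripts, and floors cover counting error only, whereas the intervals of fold changes come from the fit and include the spread between samples. Annotation, strand setting and the rule for overlapping genes are not given in the sources used here.

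The whole table was fitted with edgeR 4.0.16 in R 4.3.3 (robust quasi-likelihood, TMM), keeping genes that reached 10 counts in 3 or more samples. Tests were two-sided and p-values were adjusted by Benjamini-Hochberg, with calls under 0.05. Each standard error is the fold change on the log2 scale over the root of F. Correlations used log2 CPM with a prior count of 2. DESeq2 1.42.0 (the study's tool) and limma 3.58.1 were alternatives, and GC offsets were per-sample smooth trends made with mgcv 1.9.3. GENCODE M21, on the same build, gave coordinates, exon lengths and the GC content of the longest transcript, for 94.5% of symbols and 95.4% of genes tested. Without an entry, Adrbk1 and Adrbk2 had no offset. The fit was also run on simulated counts with the same dispersion for all genes, planted changes in some genes and no GC trend. That run does not cover the GC trend seen in these samples.

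Groups and replicate numbers came from the sample titles. Samples of the same group differed by more than counting error (chi-square over degrees of freedom 2.00 to 5.13). The receptors and the lists of partner and marker genes were chosen with earlier results of these data known. All 8 receptors were named. Partner genes were named by smallest p among those called, up to 4 a list, and Kcnj3, Kcnj5, Kcnj6, Gnao1, Plcb1, Rgs4 and Rgs7 and the single marker genes after their values were seen. Some genes of the lists are not reported here by name. The closest gene was the one of highest correlation. Alternatives comprised other tests, normalizations, filters, downsampling to 1914497 counts, the number of genes detected, GC offsets, a replicate block and each sample left out.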

Additional observations from a re-analysis of the deposited data

How the results depend on the processing

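The alternatives for the partner genes were chosen after seeing the data. Of the 8 receptors, 2 passed the threshold, and 3 with upper quartile normalization. Only Gabbr2 passed with all genes with at least 1 count, the GC content offset, and replicate block plus GC content offset (1 receptor each). In the edgeR fit with genes detected as a covariate 0 receptors passed, with 1 of all 14407 genes and 0 of the 47 partners, in place of 4327 and 18 (0, 2061 and 6 at an unadjusted p under 0.05); genes detected and group cannot be fully told apart. With DESeq2 and limma-voom, 2 receptors passed. With each sample left out in turn, 0 to 2 receptors passed (0 without NR replicate 3, 2 at an unadjusted p under 0.05), and 2620 to 4583 of all genes and 12 to 20 partners; without NR replicate 3, 2620 genes and 12 partners passed. The share of higher calls among all genes was 50.3%, 62.1% with upper quartile normalization and 37.7% with the GC content offset.

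Grm5 (0.32) kept its direction under the 19 alternatives. It lost the threshold with all genes with at least 1 count (0.23), the covariate (0.28), the GC content offset (0.11) and the block with that offset (0.14), and ranged from 0.27 to 0.37 with samples left out (adjusted p 0.00899 to 0.102). Over all 19 its adjusted p ranged from 0.00229 to 0.457. Gabbr2 was negative under all 19, lost the threshold with the covariate (-0.64) and ranged from -1.07 to -0.69 with samples left out. Gabbr1 gained it with upper quartile normalization (0.26). Grm4 (-0.011) changed sign with upper quartile normalization (0.054), at least 10 counts in every sample (0.013), the covariate (0.46), the GC content offset (0.19) and the block with that offset (0.24), and ranged from -0.10 to 0.12 with samples left out. Grm8 (0.056) changed sign with all genes with at least 1 count (-0.038), the GC content offset (-0.18) and the block with that offset (-0.18), and ranged from -0.12 to 0.26. Grm2, Grm3 and Grm7 kept direction and side of the threshold. Some settings moved all genes. Against the main fit, the median log2 fold change of the genes tested shifted by -0.092 with all genes with at least 1 count. It shifted by 0.067 with upper quartile normalization and by -0.063 with the GC content offset. Grm5 and Grm8 under the filter of at least 1 count, and Gabbr1 under upper quartile normalization, moved by about as much as that median. The causes were not tested.

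Same-numbered samples of the groups share only a number, and their deviations from group means correlated at -0.128, -0.0618 and 0.0316. With the replicate block 2 receptors passed, Gabbr2 (-1.06) and Grm5 (0.36), and 4124 genes in all.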

Other observations

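Other class C receptors, relatives of the 8 described, were also counted. Gpr158, abundant in neurons, was at -0.020 on the log2 scale (adjusted p = 0.895, edgeR), and Casr, the calcium-sensing receptor, at 0.43 (adjusted p = 0.550, edgeR). Gpr179, known from the retina, rose from 4.90 ± 1.36 CPM (SD, n = 3) in NR to 12.4 ± 4.19 CPM (SD, n = 4) in TR samples (log2 fold change 1.36, adjusted p = 0.00457, edgeR). Summed reads on olfactory receptor genes were also higher in TR, with 45.4 to 252 CPM in NR and 347 to 828 CPM in TR samples, and their part was not tested. Grm6, the receptor of retinal bipolar cells, had too few counts to be tested, at 4.02 ± 1.94 CPM (SD, n = 4) in TR and 0.738 ± 0.950 CPM (SD, n = 3) in NR samples.

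The 4 endothelial markers summed to 68.3 to 249 CPM in TR and 14.5 to 50.8 CPM in NR samples, with the highest value in TR replicate 3 and at most 123 CPM elsewhere. Without TR replicate 3, Gabbr2 had a log2 fold change of -0.91 and Grm5 of 0.34, both past the threshold (adjusted p = 0.0128 and 0.0291, edgeR). The remaining TR samples, at 68.3 to 123 CPM, still lay above every NR sample in endothelial markers. Leaving that sample out thus did not remove the group difference, and the part of these markers in the receptor results was not tested.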
